A study of Homo sapiens with 9 samples.

Results

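Ion channel genes of 3 cation families were followed through a knockdown of the fusion transcription factor EWS::FLI1 in TC32, an established Ewing sarcoma cell line whose label gives its genotype as WT. The set held every gene in the table whose symbol placed it among the potassium channel genes (KCN followed by a family letter and number), the calcium channel genes (CACNA1, CACNA2D, CACNB and CACNG) or the sodium channel genes (SCN followed by a number and A or B). This gave 135 of 60603 genes, of which 95 were potassium, 26 calcium and 14 sodium channel genes. Polyadenylated RNA was sequenced in bulk from 9 libraries, labelled as biological replicates of 3 groups of 3, all taken after 30 h and all from WT TC32 cells in medium with 10% FBS and L-glutamine. The siEF group was plated on an siRNA that spans the fusion breakpoint of EWS::FLI1, the siNEG group on a non-specific siRNA, and the Media group is labelled only Media, under a protocol note common to all libraries. One cell line was used, so every value describes TC32 alone, and P-values measure the spread between these libraries. In bulk RNA, fewer cells of a type and less RNA per cell cannot be told apart.

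Cation channels are membrane proteins that let potassium, calcium or sodium ions run down their gradients. Potassium channels hold cells near their resting potential and end action potentials, sodium channels start action potentials, and calcium channels couple membrane voltage to calcium signals inside the cell. Many pores work only with partner proteins: modifier and beta subunits change where a pore goes and how it gates, although they carry no current of their own. Ewing sarcoma is driven by EWS::FLI1, an ETS-family factor that binds GGAA motifs and activates genes from tandem GGAA repeats while lowering others.

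Of the 135 genes, 49 passed the filter on low counts and were tested, namely 32 potassium, 11 calcium and 6 sodium channel genes. Exons of 20 of the 49 overlap another annotated gene, namely KCNH3, KCNQ5, KCNAB1, KCNAB2, KCNAB3, KCNE3, KCNG1, KCNIP2, KCNMB1, KCNJ4, KCNJ14, CACNA1C, CACNA1G, CACNA1H, CACNA2D3, CACNB1, CACNB2, CACNG8, SCN2A and SCN8A, and their counts are uncertain to that extent. The other 86 did not pass, and 24 of these had 0 counts in all 9 libraries. A gene that was nearly silent in the controls passed the filter only if it was high in siEF, so counts over the tested genes are descriptions of those genes and not of the families. Library totals ran from 20727706 to 33134581 expected counts, and siEF replicate 2 was the shallowest. FLI1 counts over the whole gene gave 37.8 ± 2.0 CPM (read counts brought to a common library size by TMM scaling, mean ± SD, n = 3) in siEF and 48.4 ± 0.315 CPM in siNEG (Log2FC -0.35), and EWSR1 gave a Log2FC of -0.23. By the account of the study, FLI1 is otherwise silent in these cells and the knockdown was checked by qPCR. The totals here do not show which transcript the reads came from, and the FLI1 total fell by less than the call needs. NR0B1, a known EWS::FLI1-activated gene, fell from 137 ± 4.98 to 17.6 ± 2.35 CPM. Of 7 Ewing sarcoma marker genes, 6 were called lower in siEF, and their summed level was 508 to 528 CPM in siEF against 2577 to 2725 CPM in siNEG and 2842 to 2951 CPM in Media. Of the other marker lists, 3 of 3 epithelial genes were called higher (summed level 595 to 643 CPM in siEF, 101 to 107 CPM in siNEG and 117 to 132 CPM in Media, nearly all of it KRT18). One of these, EPCAM, was higher against siNEG alone (0.406 ± 0.0860 CPM in siEF, 0.0400 ± 0.0448 in siNEG and 0.399 ± 0.0720 in Media), and its siNEG level was called lower than Media (Log2FC -3.15, adjusted P = 0.00390). Of 4 skeletal muscle genes, 2 were called higher (6.87 to 8.08 CPM in siEF, 1.52 to 2.02 CPM in siNEG and 1.14 to 1.43 CPM in Media), and the defining genes MYOD1 and MYOG had 0 counts in every library. Of 3 endothelial genes, 1 was called lower (1.81 to 2.69 CPM in siEF, 3.43 to 4.77 CPM in siNEG and 4.08 to 5.06 CPM in Media), and of 5 haematopoietic genes none was called (0.594 to 0.984 CPM over all libraries, with CD3E and HBB at 0). The part of these marker changes in the channel results was not tested.

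The main comparison asked which channel genes differed when EWS::FLI1 was knocked down, that is, between siEF and siNEG. A gene was called where edgeR's quasi-likelihood test gave a Benjamini-Hochberg adjusted P below 0.01 over all 16093 tested genes and the Log2FC lay beyond 1 in either direction. By this rule 18 channel genes were higher and 11 lower in siEF, beside 17.1% and 11.7% of all tested genes. Together 29 of the 49 tested channel genes were called (59.2%), against 28.8% of all tested genes. Their median Log2FC was 0.60, against 0.05 over all tested genes. The 3 siEF libraries lay wholly above the 3 siNEG libraries in 30 channel genes and wholly below them in 14, and such separation was seen in 76.9% of all tested genes. Fitted sizes ran from a Log2FC of -3.08 in KCNQ5 to 5.88 in KCNN4, and both rest on few counts. By family, 12 potassium channel genes were higher and 10 lower, 4 calcium channel genes were higher and 0 lower, and 2 sodium channel genes were higher and 1 lower. With an adjusted P below 0.01 alone, 25 channel genes were higher and 14 lower, beside 33.6% and 31.7% of all tested genes, and 1 of the 11 tested calcium channel genes, CACNA1I, was then among the lower ones.

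**Figure D1:**
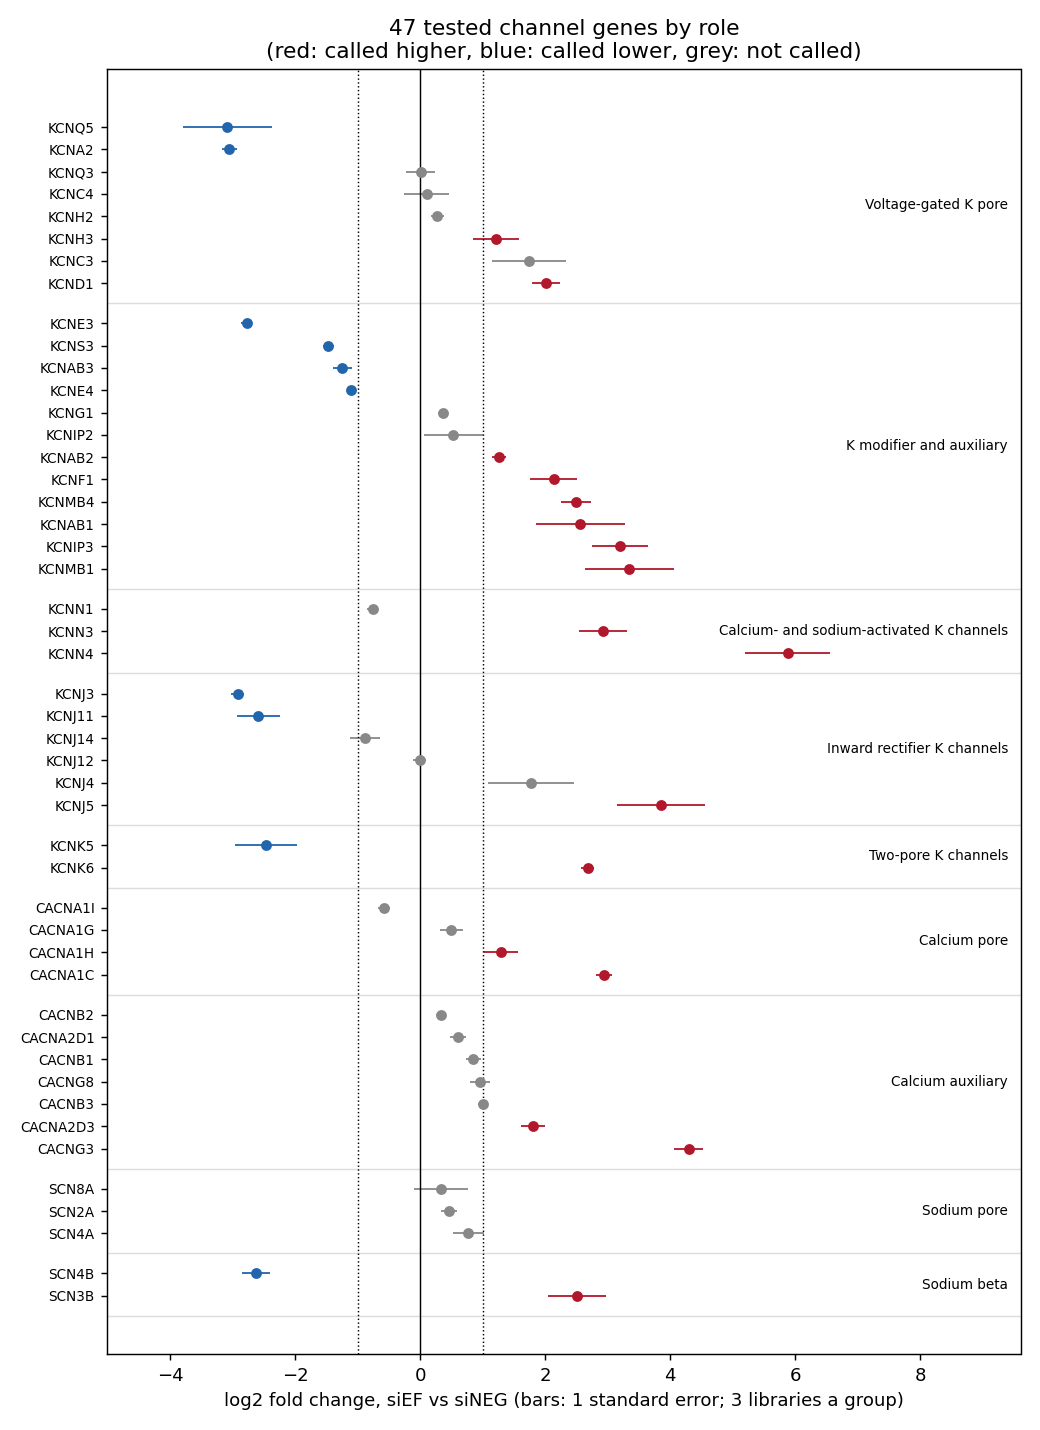
Log2 fold change between siEF and siNEG (x axis, bars of 1 standard error, 3 libraries a group) for 47 of the 49 tested channel genes, grouped by role on the y axis, with red for genes called higher, blue for genes called lower, grey for genes not called and dotted lines at -1 and 1. The modifier and auxiliary potassium channel genes spread from -2.77 to 3.35, while all 7 calcium auxiliary genes lay above 0.

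Voltage-gated potassium pore genes, which encode the subunits that form the ion path, moved in both directions. Of 30 such genes 9 were tested, 2 were called higher and 3 lower. KCNA2 (chr1:110519837-110631474, positions of whole genes here and elsewhere in hg38) encodes a delayed-rectifier pore subunit that limits firing in neurons. It had 88, 59 and 56 counts in the siEF libraries, 671, 784 and 662 in siNEG and 672, 726 and 684 in Media. The siEF libraries stood far below both controls with no overlap, and the controls overlapped each other. In CPM this was 2.66 ± 0.660 against 21.8 ± 1.09 (SD, n = 3), a level 8.28 times lower (Log2FC -3.05, SE 0.12, adjusted P = 1.26e-12). KCNQ5, a pore subunit of slow voltage-gated currents named after its values were seen because it had the lowest Log2FC of the set, had 6, 0 and 0 counts in siEF, 22, 20 and 24 in siNEG and 22, 40 and 22 in Media (Log2FC -3.08, SE 0.71, adjusted P = 9.32e-04), and all 6 of its siEF counts came from replicate 1. Without siEF replicate 1 its siEF libraries were all at 0 and the fitted Log2FC of -7.35 rested on the prior count, and without siEF replicate 3 it was -2.45. Exons of KCNQ5 overlap a pair of opposite-strand transcripts, and since the strand setting is not given in the sources used here, reads of the partners cannot be told apart.

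KCND1 (chrX:48961378-48971844), a pore subunit of rapidly inactivating A-type currents, had 163, 98 and 167 counts in siEF, 56, 45 and 30 in siNEG and 59, 49 and 62 in Media. Its siEF level of 5.47 ± 0.587 CPM was 4.05 times the siNEG level of 1.35 ± 0.404 CPM (Log2FC 2.02, SE 0.22, adjusted P = 3.51e-07), and no siEF library overlapped a control. KCNH3 (chr12:49539030-49558337), of the ether-a-go-go family, had 71, 43 and 59 counts in siEF, 37, 47 and 10 in siNEG and 27, 21 and 20 in Media (Log2FC 1.21, SE 0.37, adjusted P = 0.00749). The siNEG values were spread widely, and the call did not hold without siEF replicate 1, 2 or 3 (Log2FC 1.09, 1.24 and 1.28), without Media replicate 1 or 2 (1.20 in each), or without siNEG replicate 1 (1.34) or 3 (0.80). Exons of KCNH3 also overlap MCRS1 on the opposite strand. KCNH2, the pore gene of the cardiac rapid delayed rectifier, was among the more abundant channel genes at 23.9 ± 3.07 CPM in siEF, 19.7 ± 0.887 in siNEG and 22.4 ± 3.39 in Media, and was not called (Log2FC 0.27, SE 0.10, adjusted P = 0.0258).

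The promoter and the nearest tandem GGAA repeat of KCNA2 are shown because it had the largest fall among the genes above 1 CPM and was the one tested channel gene with the ETS core motif CCGGAAG in its promoter. The promoter (RefSeq, GRCh38.p14, 250 bases before to 50 after a transcript start, minus strand, chr1:110606309-110606608) is given with the motif in capitals. That start lies inside the annotated gene and not at its outer end. On both strands, CCGGAAG was found in 10.3% of 35116 promoters of this length and in 5 of the 97 channel genes that matched a RefSeq promoter.
KCNA2 promoter: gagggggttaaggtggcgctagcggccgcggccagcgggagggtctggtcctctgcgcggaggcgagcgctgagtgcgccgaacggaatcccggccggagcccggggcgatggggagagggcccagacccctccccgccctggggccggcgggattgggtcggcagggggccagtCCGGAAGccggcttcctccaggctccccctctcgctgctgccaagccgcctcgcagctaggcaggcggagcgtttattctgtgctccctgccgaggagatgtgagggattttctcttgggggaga
The repeat lay 4662 bp upstream of the start of the canonical transcript, inside the annotated gene, and held 13 consecutive GGAA units, in capitals between 15 bases of flank (hg38, plus strand, chr1:110611005-110611086).
KCNA2 repeat: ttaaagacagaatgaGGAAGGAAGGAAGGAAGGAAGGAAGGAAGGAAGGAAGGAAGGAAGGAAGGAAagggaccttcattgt

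Modifier and auxiliary potassium channel genes, whose products join or escort a pore, were the group with the most tested genes and the most calls. Of 26 genes 12 were tested, 6 were called higher and 4 lower. KCNE4 (chr2:223052190-223198399), a single-pass subunit that restrains several voltage-gated pores, had 2230, 1719 and 2431 counts in siEF, 5507, 5928 and 5756 in siNEG and 4869, 5312 and 4639 in Media. It was the most abundant tested channel gene per length in all 3 groups, at 28.4 ± 0.648 CPM per kb of transcript in siEF, 61.0 ± 2.02 in siNEG and 56.0 ± 1.67 in Media. Its fall lay just inside the cut-off against siNEG (Log2FC -1.10, SE 0.05, adjusted P = 1.31e-12) and just outside it against Media (Log2FC -0.98, adjusted P = 5.62e-12). KCNE3 (chr11:74454841-74467729), the partner subunit that holds some KCNQ channels open, fell further, with 104, 84 and 116 counts in siEF, 838, 868 and 896 in siNEG and 672, 718 and 691 in Media. Its level dropped 6.83 times, from 26.9 ± 1.62 to 3.95 ± 0.180 CPM (Log2FC -2.77, SE 0.09, adjusted P = 5.81e-14), with the 3 siEF libraries below every control. KCNS3 (chr2:17877847-18361616), an electrically silent subunit that modifies other pores, had 402, 234 and 310 counts in siEF, 1021, 1193 and 1055 in siNEG and 1274, 1221 and 1059 in Media (Log2FC -1.46, SE 0.09, adjusted P = 4.31e-10), and was the second most abundant per length in siNEG at 14.4 ± 0.621 CPM per kb.

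Silent subunits did not move together. KCNF1 (chr2:10911934-10914225), also a silent subunit, had 78, 49 and 71 counts in siEF, 15, 23 and 18 in siNEG and 20, 5 and 24 in Media, and its level was 4.40 times higher in siEF than in siNEG (Log2FC 2.14, SE 0.38, adjusted P = 8.81e-05). KCNG1, a further silent subunit and the fourth most abundant per length in siNEG (6.0 CPM per kb), stood at 16.9 ± 1.00 CPM in siEF, 13.1 ± 0.107 in siNEG and 15.8 ± 0.568 in Media and was not called (Log2FC 0.37, SE 0.07, adjusted P = 3.41e-04). Its siEF libraries lay above siNEG and overlapped Media.

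The 3 cytoplasmic beta subunit genes of the KCNAB family, whose products carry an oxidoreductase fold, split. KCNAB3 (chr17:7921859-7929856) had 112, 73 and 86 counts in siEF, 303, 232 and 267 in siNEG and 284, 261 and 275 in Media and fell (Log2FC -1.24, SE 0.15, adjusted P = 1.37e-06). KCNAB2 (chr1:5990927-6101193) had 271, 220 and 311 counts in siEF, 150, 144 and 125 in siNEG and 157, 186 and 148 in Media and rose (Log2FC 1.26, SE 0.12, adjusted P = 4.28e-08). In CPM, KCNAB2 went from 4.33 ± 0.373 to 10.4 ± 0.538 as KCNAB3 went from 8.32 ± 1.38 to 3.52 ± 0.551. Against Media, KCNAB2 lay just under the cut-off (Log2FC 0.94). Exons of KCNAB2 overlap NPHP4 on the opposite strand. KCNAB1, called higher at under 1 CPM, had 10, 8 and 12 counts in siEF, 5, 1 and 0 in siNEG and 2, 1 and 1 in Media (Log2FC 2.56, SE 0.72, adjusted P = 0.00416). The call was lost without any 1 of siEF replicates 1, 2 and 3 or siNEG replicates 2 and 3 (adjusted P = 0.0122 to 0.0282, at a Log2FC of 2.02 to 2.61), and without siNEG replicate 1, which held 5 of its 6 siNEG counts, the Log2FC was 4.29.

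Both tested beta subunits of the large-conductance calcium-activated potassium channel rose. Its pore gene KCNMA1, named after its values were seen, was not tested, with 6 counts over the siEF libraries, 5 over siNEG and 2 over Media. KCNMB4 (chr12:70366290-70434292), the neuronal form, had 179, 112 and 145 counts in siEF, 28, 36 and 33 in siNEG and 42, 21 and 38 in Media, a rise of 5.61 times (Log2FC 2.49, SE 0.24, adjusted P = 9.24e-08). KCNMB1, the smooth muscle form, was called higher at under 1 CPM, with 13, 10 and 21 counts in siEF, 2, 2 and 1 in siNEG and 1, 0 and 5 in Media (Log2FC 3.35, SE 0.71, adjusted P = 4.78e-04). Both had siEF libraries wholly above the controls. KCNIP3 (chr2:95297327-95386077), a calcium-binding partner of A-type pores such as KCND1, had 50, 36 and 24 counts in siEF, 4, 5 and 6 in siNEG and 5, 5 and 7 in Media (Log2FC 3.19, SE 0.45, adjusted P = 7.77e-06). KCNIP2, a close relative of KCNIP3 named after its values were seen, was not called, with 18, 7 and 29 counts in siEF and 21, 7 and 17 in siNEG that overlapped (Log2FC 0.53, SE 0.47, adjusted P = 0.318).

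**Figure D2:**
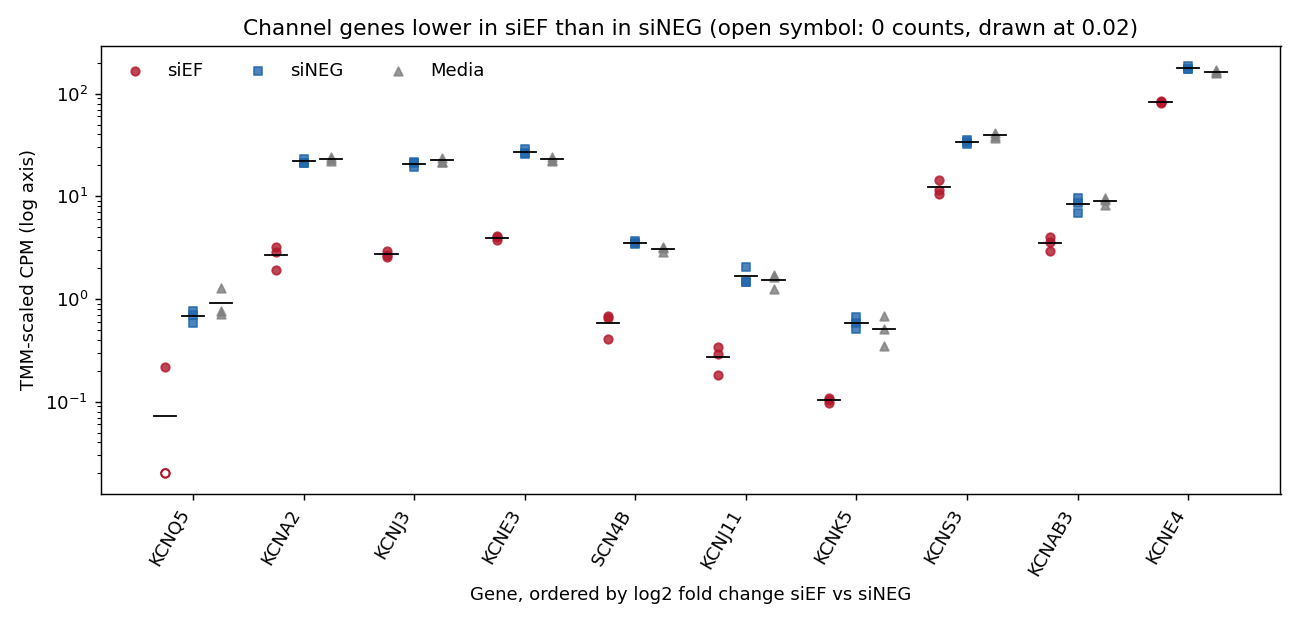
TMM-scaled CPM on a log axis for 10 of the 11 channel genes called lower in siEF than in siNEG, ordered by Log2FC, with 1 point for each library (circles siEF, squares siNEG, triangles Media), a black bar for the group mean and open symbols at 0.02 for libraries with 0 counts. In each gene the 3 siEF points sit below the 3 siNEG points, and KCNE4 is the most abundant at 82.7 CPM in siEF.

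Calcium-activated potassium pore genes showed the steepest rise of the set. Of 8 genes in the calcium- and sodium-activated class, 3 were tested, 2 were called higher and 0 lower. KCNN4 (chr19:43766533-43780976), the intermediate-conductance channel of blood cells and epithelia, had 38, 36 and 37 counts in siEF, 2, 0 and 0 in siNEG and 1, 0 and 1 in Media. Both controls were at or near 0, and the siEF libraries averaged 1.47 ± 0.261 CPM. The 111 siEF counts against 2 siNEG counts gave a depth-corrected ratio of 69.5 (exact 95% interval 18.8 to 581, counting error only), and edgeR gave an adjusted P of 6.92e-07. Both siNEG counts came from replicate 1, so the fitted Log2FC of 5.88 moved to 8.40 without it, a value set by the prior count, and to 5.33 without siNEG replicate 2. KCNN3 (chr1:154697455-154870281), a small-conductance channel that gives neurons their afterhyperpolarisation, had 67, 35 and 79 counts in siEF, 8, 13 and 8 in siNEG and 5, 15 and 9 in Media, 7.59 times higher in siEF than in siNEG (Log2FC 2.92, SE 0.38, adjusted P = 2.76e-06). KCNN1, the third member tested and also a small-conductance channel, went the other way, with 240, 146 and 232 counts in siEF, 398, 461 and 447 in siNEG and 669, 706 and 609 in Media. No group of KCNN1 overlapped another, with siEF lowest and Media highest. It missed the fold cut-off against siNEG (Log2FC -0.76, SE 0.09, adjusted P = 9.28e-07) and passed it against Media (Log2FC -1.46, adjusted P = 1.74e-10), and siNEG itself was below Media (Log2FC -0.69, adjusted P = 1.64e-05).

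Inward rectifiers, which pass potassium into the cell more easily than out of it, held a split pair of partner subunits. Of 16 genes 6 were tested, 1 was called higher and 2 lower. KCNJ3 (chr2:154697855-154858354), a subunit of the G protein-gated channel, had 82, 52 and 78 counts in siEF, 604, 740 and 660 in siNEG and 662, 686 and 681 in Media. Its level fell 7.54 times, from 20.7 ± 1.42 to 2.73 ± 0.213 CPM, with a wide gap between siEF and both controls (Log2FC -2.91, SE 0.10, adjusted P = 1.70e-13). KCNJ5, which pairs with KCNJ3 in the cardiac form of that channel, was called higher at under 1 CPM, with 14, 22 and 25 counts in siEF, 3, 0 and 2 in siNEG and 0, 3 and 2 in Media (Log2FC 3.85, SE 0.71, adjusted P = 1.21e-04). Its Log2FC was 4.49 without siNEG replicate 1 and 3.26 without siNEG replicate 2. KCNJ11 (chr11:17365172-17389331), the pore of the ATP-sensitive potassium channel, had 5, 6 and 10 counts in siEF, 46, 50 and 64 in siNEG and 52, 51 and 36 in Media, 6.02 times lower in siEF than in siNEG (Log2FC -2.59, SE 0.34, adjusted P = 3.74e-06). KCNJ14 lay just short of the cut-off at 42, 32 and 31 counts in siEF, 79, 75 and 90 in siNEG and 54, 57 and 40 in Media (Log2FC -0.88, SE 0.24, adjusted P = 0.00305). Its exons overlap those of GRWD1 on the same strand, and its siEF libraries overlapped Media. KCNJ12 overlapped across all groups (14.0 ± 1.35 CPM in siEF, 13.9 ± 1.93 in siNEG and 14.9 ± 0.697 in Media), but it is nearly identical to KCNJ18, so its counts are uncertain.

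The tandem-pore leak channels, which set the resting potential, were mostly below the filter. Of 15 genes 2 were tested, and these were called in opposite directions. KCNK6 (chr19:38319845-38332076) had 660, 425 and 660 counts in siEF, 127, 106 and 106 in siNEG and 107, 116 and 104 in Media. At 22.4 ± 1.53 CPM against 3.51 ± 0.455 CPM it was 6.40 times higher in siEF (Log2FC 2.68, SE 0.11, adjusted P = 1.04e-12), and the controls overlapped each other well below it. KCNK5, an alkaline-activated member called lower at under 1 CPM, had 3, 2 and 3 counts in siEF, 16, 20 and 21 in siNEG and 21, 16 and 10 in Media (Log2FC -2.46, SE 0.50, adjusted P = 3.22e-04). The KCNK6 promoter (RefSeq, GRCh38.p14, plus strand, chr19:38319595-38319894) is shown because it was the one tested channel gene whose promoter held GGAAGGAA, in capitals, a pair of adjoining GGAA units. This motif was found on either strand in 3.67% of the 35116 promoters and in 8 of the 97 matched channel genes. A match is a run of letters and says nothing on binding.
KCNK6 promoter: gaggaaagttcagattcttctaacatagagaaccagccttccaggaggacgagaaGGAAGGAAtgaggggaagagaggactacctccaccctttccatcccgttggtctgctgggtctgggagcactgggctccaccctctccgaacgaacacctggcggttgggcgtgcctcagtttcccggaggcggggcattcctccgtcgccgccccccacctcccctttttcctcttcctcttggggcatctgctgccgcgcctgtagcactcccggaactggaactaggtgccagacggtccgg

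Calcium pore genes were called in 1 direction. Of 10 genes 4 were tested, 2 were called higher and 0 lower. CACNA1C (chr12:1970772-2697950), the L-type channel of heart, smooth muscle and neurons, had 561, 380 and 559 counts in siEF, 61, 102 and 81 in siNEG and 81, 77 and 80 in Media. Its level was 19.3 ± 0.845 CPM in siEF against 2.51 ± 0.545 in siNEG and 2.63 ± 0.176 in Media, 7.68 times higher than siNEG (Log2FC 2.94, SE 0.13, adjusted P = 4.55e-12), with a clear gap to both controls. The 3 T-type genes, whose channels open near rest, were all tested and differed. CACNA1H (chr16:1153106-1221771) had 70, 54 and 47 counts in siEF, 29, 28 and 31 in siNEG and 39, 48 and 32 in Media and was called higher than siNEG (Log2FC 1.3, SE 0.27, adjusted P = 4.07e-04) but not than Media (Log2FC 0.78, adjusted P = 0.0138). CACNA1G was not called, at 4.60 ± 0.779 CPM in siEF and 3.24 ± 0.236 in siNEG (Log2FC 0.50, SE 0.18, adjusted P = 0.0229). CACNA1I stood lower in siEF, with 207, 165 and 206 counts in siEF, 363, 411 and 312 in siNEG and 422, 428 and 421 in Media, at a size below the fold cut-off (Log2FC -0.58, SE 0.10, adjusted P = 6.23e-05). CACNA1G and CACNA1I fall outside the naming rule and were named after their values were seen, to account for the T-type genes. Exons of CACNA1C and CACNA1H overlap opposite-strand transcripts.

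The tested calcium auxiliary genes all stood higher in siEF than in siNEG, most of them by less than the fold cut-off. Of 16 genes 7 were tested, 2 were called higher and 0 lower, and all 7 had an adjusted P below 0.01 with a positive Log2FC, against 33.6% of all tested genes. In each of the 7 the 3 siEF libraries lay above the 3 siNEG libraries, against 39.8% of all tested genes. Against Media, 6 of the 7 had a positive Log2FC with an adjusted P below 0.01, beside 5413 of all 16093 tested genes. CACNA2D1, named after its values were seen, overlapped Media (Log2FC 0.12, adjusted P = 0.364), and its siNEG level was below Media (Log2FC -0.48, adjusted P = 0.0124). CACNB3, CACNG8 and CACNB1 also differed less from Media (Log2FC 0.72, 0.74 and 0.61), while CACNG3, CACNA2D3 and CACNB2 differed more. CACNG3 (chr16:24256335-24362412), a gamma subunit that also escorts AMPA-type glutamate receptors, had 239, 180 and 311 counts in siEF, 9, 19 and 18 in siNEG and 6, 8 and 7 in Media. Its level was 19.6 times higher in siEF than in siNEG (9.37 ± 1.12 against 0.474 ± 0.164 CPM) (Log2FC 4.29, SE 0.23, adjusted P = 3.93e-11). CACNA2D3 (chr3:54122552-55074557), an alpha-2-delta subunit that brings pores to the membrane, had 180, 138 and 185 counts in siEF, 54, 52 and 74 in siNEG and 60, 52 and 42 in Media (Log2FC 1.80, SE 0.19, adjusted P = 1.97e-07), and its exons overlap opposite-strand transcripts. The beta subunits, which chaperone the pore, moved less. CACNB3, the fifth most abundant channel gene per length in siNEG (5.76 CPM per kb), went from 16.9 ± 1.06 to 33.7 ± 1.22 CPM and lay on the cut-off without passing it (Log2FC 1.00, SE 0.07, adjusted P = 7.42e-10). It passed without siEF replicate 2 (Log2FC 1.02) or 3 (1.01) or siNEG replicate 2 (1.01) or 3 (1.02). CACNG8, another AMPA receptor escort, had a Log2FC of 0.96 (SE 0.16) and passed without siEF replicate 2 (1.01) or siNEG replicate 1 (1.12). CACNB1, the skeletal muscle beta subunit, had a Log2FC of 0.85 (SE 0.12). CACNB2, the main cardiac beta subunit, had 929, 620 and 958 counts in siEF, 887, 878 and 725 in siNEG and 704, 695 and 759 in Media, or 32.3 ± 1.68, 25.7 ± 2.40 and 23.8 ± 2.35 CPM (Log2FC 0.33, SE 0.08, adjusted P = 0.00176). Its difference passed the adjusted P and stayed well short of the fold cut-off.

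Among sodium channel genes, the tested beta subunits split. Of 10 pore genes 4 were tested, with 1 called higher, and of 4 beta genes 2 were tested, with 1 called in each direction. SCN4B (chr11:118133377-118152888), a beta subunit with an adhesion-type extracellular domain, had 18, 14 and 12 counts in siEF, 112, 124 and 107 in siNEG and 88, 102 and 89 in Media, 6.14 times lower in siEF than in siNEG (Log2FC -2.62, SE 0.23, adjusted P = 2.02e-08). SCN3B (chr11:123629187-123655244), another beta subunit, had 31, 24 and 32 counts in siEF, 3, 11 and 5 in siNEG and 1, 0 and 1 in Media and was called higher (Log2FC 2.51, SE 0.46, adjusted P = 1.29e-04). Without siNEG replicate 2 its Log2FC was 3.10. For SCN3B the siNEG libraries also lay above Media, where only 2 counts were seen, at a fitted Log2FC of 2.92 (adjusted P = 0.0218), a value above the 2.51 between siEF and siNEG. The brain pore genes SCN2A and SCN8A and the skeletal muscle pore gene SCN4A had Log2FC values of 0.46, 0.34 and 0.77 and were not called. SCN4A was called higher against Media (Log2FC 1.07, adjusted P = 0.00130). SCN8A was not called there, though its siEF libraries lay wholly above Media (Log2FC 1.39, adjusted P = 0.0133). Its siNEG libraries also lay above Media (Log2FC 1.06, adjusted P = 0.137). SCN2A overlapped Media (Log2FC 0.35).

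**Figure D3:**
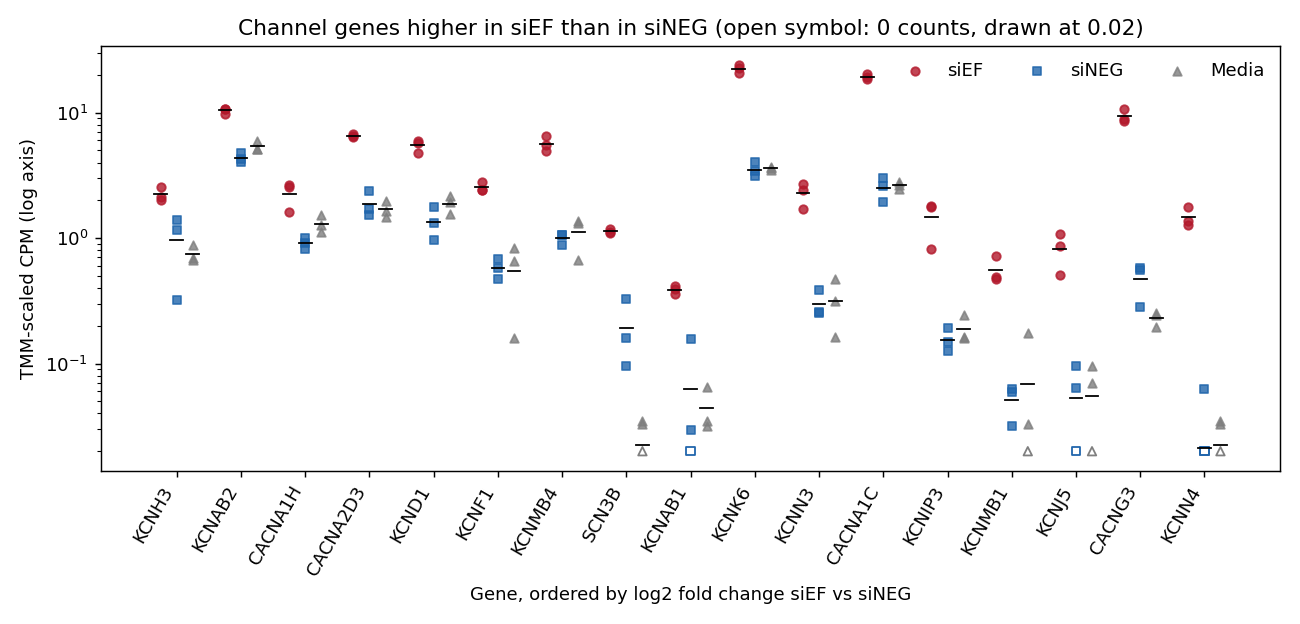
TMM-scaled CPM on a log axis for 17 of the 18 channel genes called higher in siEF than in siNEG, ordered by Log2FC, with 1 point for each library, a black bar for the group mean and open symbols at 0.02 for libraries with 0 counts. KCNK6 and CACNA1C reach 22.4 and 19.3 CPM in siEF, while KCNAB1, KCNMB1 and KCNJ5 stay under 1 CPM and KCNN4 is near 0 in both controls.

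Levels can be compared between genes once divided by transcript length. After KCNE4, KCNS3, KCNE3 (8.79 ± 0.528 CPM per kb), KCNG1 and CACNB3, the next in siNEG were KCNH2 at 4.58, KCNJ3 at 4.47 and CACNB2 at 4.20 CPM per kb, levels that lay close together. In siEF the order after KCNE4 was led by CACNB3 at 11.5 ± 0.417 CPM per kb, and KCNE3 stood at 1.29 ± 0.0586 CPM per kb. Transcript length was that of the canonical transcript, and the transcripts these cells use were not tested.

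**Figure D4:**
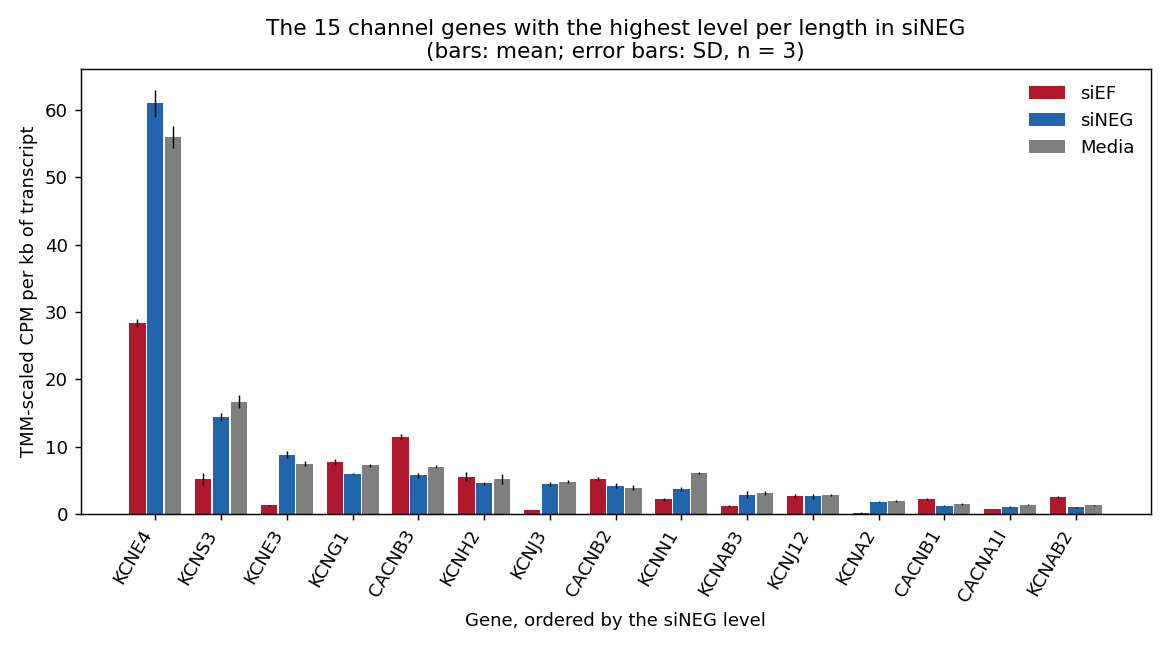
Mean TMM-scaled CPM per kb of canonical transcript in siEF, siNEG and Media (bars, error bars of 1 SD, n = 3) for the 15 tested channel genes with the highest siNEG level. KCNE4 stands above the rest in every group at 28.4, 61.0 and 56.0 CPM per kb.

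The siNEG and Media libraries were compared to give the background of the non-specific siRNA. By the same rule 0 of the 49 tested channel genes were called by edgeR, against 0.429% of all tested genes, and DESeq2 also called 0. At an unadjusted P below 0.05 there were 13, a share near the 30.3% of all tested genes at that level. KCNN1 (Log2FC -0.69) and CACNB3 (Log2FC -0.28) had an adjusted P below 0.01 at sizes under the fold cut-off, both lower in siNEG, as were 5.96% of all tested genes. The comparison of siEF with Media shares the siEF libraries with the main one, so it is no independent repeat. It called 17 channel genes higher and 10 lower, beside 17.4% and 12.5% of all tested genes. Of the genes called against siNEG, 16 were also higher and 9 also lower against Media. CACNA1H, KCNAB2 and KCNE4 were among those called against siNEG alone, and SCN4A and KCNN1 against Media alone, which is a statement on the cut-offs and not a test of the difference between controls.

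Several families held relatives that were called in opposite directions, namely KCNJ3 and KCNJ5, KCNK5 and KCNK6, SCN4B and SCN3B, and KCNAB3 against KCNAB1 and KCNAB2. The pairs were put together after their values were seen and no test was run across them. Of these genes, KCNJ5, KCNK5 and KCNAB1 were under 1 CPM in every group and rest on few counts.

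Among the 86 channel genes that were not tested, 62 had at least 1 count. The highest count in any library was 21 and the highest total over the 9 libraries was 69, both in KCNG3. In 9 of these 62 (14.5%) siNEG and Media were both at 0 counts while siEF held over 3 in all, and in 2 (3.23%) siEF was at 0 while the controls held over 3. Among all untested genes with a count the shares were 3.78% and 6.83%. KCNH1, a voltage-gated pore gene of the ether-a-go-go family named after its values were seen, had 16, 9 and 3 counts in siEF and 0 in siNEG. Against a floor of 3 counts over the siNEG group this gave a depth-corrected ratio of 11.7, with the siEF sum taken as exact. CACNA2D4, named in the same way, had 5, 10 and 5 counts in siEF and 0 in siNEG, a ratio of 8.35 by the same floor. These ratios are not lower limits. KCNH1 and CACNA2D4 were not tested in the main fit, and were called higher than siNEG with no filter and with DESeq2.

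EWS::FLI1 is known to act through tandem GGAA repeats, so the nearest run of at least 4 GGAA units on either strand was sought for each tested gene in hg38. Distances were taken from the start of the canonical transcript, so a run upstream of that start can lie inside the annotated gene. Only the nearest run of each gene was kept, and longer runs farther off are not covered. The search was chosen after the values were seen, binding was not measured in these libraries, and the shares are descriptions. Within 10 kb of the start, 4 of the 11 channel genes called lower (36.4%), 4 of the 18 called higher (22.2%) and 3 of the 20 not called (15%) had such a run, against 6.69% of all tested genes, 9.59% of all genes called lower and 7.46% of all called higher. KCNE4, with 5 units 10109 bp upstream, lay just outside this window. Within 50 kb the shares were 63.6%, 44.4% and 35.0%, against 32.8%, 34.7% and 35.7%. Channel genes were longer than most, with a median of 48793 bp for those tested against 28272 bp for all tested genes. Among the nearest runs of tested channel genes within 10 kb, the longest were those of KCNN1 with 14 units 1026 bp upstream, KCNA2 with 13, CACNB2 with 11 units 3293 bp upstream, KCNS3 with 10 units 6470 bp upstream and CACNA1I with 9 units 469 bp upstream. These 5 genes had Log2FC values of -0.76, -3.05, 0.33, -1.46 and -0.58.

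The runs are printed to let their length and purity be compared, on the plus strand of hg38 with the repeat in capitals (TTCC where the GGAA units lie on the minus strand) and 15 bases of flank on each side. They span chr19:17966011-17966096 for KCNN1, chr10:18137073-18137146 for CACNB2, chr2:17872143-17872212 for KCNS3 and chr22:39570234-39570299 for CACNA1I. The short runs of KCNE3 (chr11:74468654-74468699), 1120 bp upstream of a gene that fell, and KCNMB1 (chr5:170382928-170382981), 6401 bp downstream of the start of a gene that rose, are given beside them. The KCNN1 and KCNMB1 runs lie inside the annotated gene and the others outside it.
KCNN1 repeat: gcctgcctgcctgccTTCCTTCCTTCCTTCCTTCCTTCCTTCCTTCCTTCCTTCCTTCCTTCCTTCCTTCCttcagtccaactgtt
CACNB2 repeat: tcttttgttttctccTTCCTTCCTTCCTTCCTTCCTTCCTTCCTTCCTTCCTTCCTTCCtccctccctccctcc
KCNS3 repeat: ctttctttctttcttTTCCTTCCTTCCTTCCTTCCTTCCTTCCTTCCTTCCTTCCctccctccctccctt
CACNA1I repeat: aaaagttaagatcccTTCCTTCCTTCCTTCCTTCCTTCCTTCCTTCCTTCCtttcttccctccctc
KCNE3 repeat: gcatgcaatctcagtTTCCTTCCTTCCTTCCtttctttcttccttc
KCNMB1 repeat: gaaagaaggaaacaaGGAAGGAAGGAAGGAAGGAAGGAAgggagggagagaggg

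**Figure D5:**
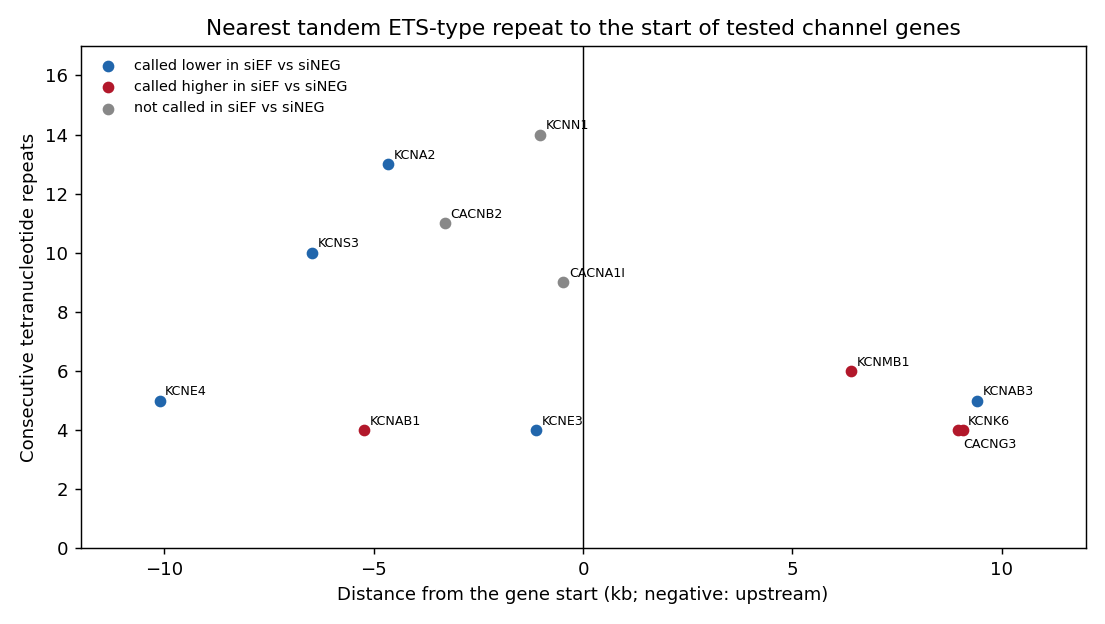
Number of consecutive repeat units (y axis) against distance from the start of the canonical transcript in kb (x axis, labelled gene start, negative upstream) for the 12 tested channel genes with a tandem repeat out to 10109 bp, in blue for genes called lower, red for called higher and grey for not called. The runs of 9 units or more are all upstream and belong to KCNN1, KCNA2, CACNB2, KCNS3 and CACNA1I, of which KCNN1, CACNB2 and CACNA1I were not called. The genes called higher have 4 to 6 units, and KCNE3, KCNAB3 and KCNE4, called lower, have 4 or 5.

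Related transport genes were taken from 7 lists of 141 genes, of which 82 were tested, 27 were called higher and 12 lower, with a median Log2FC of 0.39. Over all tested genes 17.1% were called higher and 11.7% lower, with a median Log2FC of 0.05. The same shares stand beside the counts of each list below. Of 14 tested TRP channels, 7 were higher and 3 lower. TRPM8, the cold receptor, fell from 23.2 ± 0.228 to 4.06 ± 0.330 CPM (Log2FC -2.52, SE 0.08, adjusted P = 1.22e-13), TRPM4 had a Log2FC of -1.68, and MCOLN3, a lysosomal channel, had 32, 36 and 67 counts in siEF and 4, 3 and 0 in siNEG (Log2FC 4.51, SE 0.59, adjusted P = 3.15e-06). TRPM1, the other large rise, had a Log2FC of 2.04 (SE 0.54) at under 1 CPM in every group. Its counts were few, with 13, 18 and 15 in siEF, 8, 4 and 2 in siNEG and 4, 3 and 2 in Media. Of 12 tested store-operated and calcium release genes, 5 were higher and 0 lower. ORAI3, a pore of store-operated calcium entry, rose from 0.700 ± 0.195 to 9.55 ± 0.291 CPM (Log2FC 3.76, SE 0.24, adjusted P = 4.78e-10), and RYR1, the skeletal muscle calcium release channel, rose from 0.209 ± 0.0971 to 1.70 ± 0.0591 CPM (Log2FC 3.01, SE 0.44, adjusted P = 1.05e-05). Of 7 tested epithelial sodium, acid-sensing and NALCN genes, 2 were higher (SCNN1A with a Log2FC of 3.28 and SCNN1D with 1.33) and 2 lower (SCNN1G with -2.58 and ASIC2 with -2.06), so the subunits of the epithelial sodium channel went opposite ways.

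Of 16 tested pumps and exchangers, 6 were higher and 2 lower. ATP2B4, a plasma membrane calcium pump, had a Log2FC of -1.43. The largest rises were those of ATP1B2 (Log2FC 3.33, SE 0.65), a sodium pump beta subunit, and SLC8A2 (2.89), a sodium-calcium exchanger. ATP1B2 was under 1 CPM in every group and rests on few counts. It had 23, 21 and 31 counts in siEF, 4, 5 and 0 in siNEG and 13, 2 and 6 in Media (Log2FC 2.05 against Media). Of 15 tested chloride channel genes, 4 were higher, among them ANO4 (1.77), and ANO5 was lower (-1.47). Of 16 tested partner genes, 2 were higher, SPTBN4 (3.01) and STAC2 (1.23), and 4 lower. FGF13, which binds sodium channel pores, fell from 119 ± 1.51 to 9.10 ± 0.864 CPM (Log2FC -3.72, SE 0.07, adjusted P = 2.36e-16). Of 2 tested HCN and CNG genes, HCN2, a pacemaker channel, was higher (1.49).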

How the data were processed

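The deposited table holds expected counts per gene, which the authors made by mapping the reads to hg38 with STAR and quantifying with RSEM, not scaled for depth. The labels' processing notes also name FastQC, cutadapt 2.10 and DESeq2 1.32.0, polyadenylated RNA, an NEB small RNA library kit and batch 1 for every library, and the annotation release and strand setting are not given in the sources used here. All 9 columns were used and rounded to whole numbers. Genes were filtered with filterByExpr, scaled by TMM (factors 0.9705 to 1.0284) and fitted in edgeR 4.0.16 (R 4.3.3, quasi-likelihood F test), with 1 term for each of the 3 groups and Benjamini-Hochberg adjustment over 16093 genes. Calls needed an adjusted P below 0.01 and a Log2FC beyond 1, the thresholds of the study's methods, and a fold change carries edgeR's prior count. Each SE was worked back as the absolute Log2FC over the square root of the F statistic, so it also carries the prior count. The script was tested on simulated data with changes set only in genes above 1 CPM and well beyond the fold cut-off. That test does not cover genes under 1 CPM or sizes near the cut-off. Channel genes were chosen by symbol, and members and lists were chosen with earlier results of these data known. Named were called genes with separated libraries and a mean of at least 1 CPM in the higher group, the 5 most abundant per length, CACNB2, genes within 0.15 of the fold cut-off and up to 2 rises and 2 falls in each related list. Other named genes are marked as such, apart from the under 1 CPM, KCNN1, KCNH2, KCNJ12 and sodium pore genes, which were added after their values were seen to account for their families. Some genes that met these rules are counted but not reported here by name. Positions come from GENCODE release 44 (GRCh38), matched for 135 of 135 channel genes by gene ID, and promoters from RefSeq. Library pairs differed beyond counting noise, so none was merged. Replicate numbers were not used to pair libraries. Totals of 20727706 to 33134581 counts limit precision for genes with few counts, and intervals cover counting error only. Ratios to a floor take the siEF sum as exact. Alternatives were RLE and upper quartile scaling, DESeq2 1.42.0, no filter, a floor of 10 counts per library, a fit of 6 libraries, the replicate block, a test against the cut-off, other cut-offs, unrounded counts, pooled controls and leaving out each library.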

Additional observations from a re-analysis of the deposited data

How the results depend on the processing

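Between siEF and siNEG, 18 channel genes were called higher and 11 lower. Of these 29 genes, 21 were called under every alternative that gave a value, and 8 lost the call in at least 1, among them KCNH3, KCNAB1, KCNQ5, KCNAB3, KCNE4, KCNAB2 and CACNA1H. With at least 10 counts in every library, 33 channel genes were tested, since a gene with any library under 10 counts was left out. The higher calls then numbered 10 against siNEG and 8 against Media, and the lower calls 8 and 7. A test against the cut-off itself left 7 lower calls, with KCNAB3, KCNE4 and KCNQ5 among those lost. Between siNEG and Media, an adjusted P below 0.05 gave 1 higher gene (SCN3B) and no fold cut-off gave 2 lower genes. Leaving out each library gave 17 to 20 higher and 10 to 11 lower calls against siNEG, 16 to 19 and 10 to 11 against Media, and 0 between siNEG and Media. Replicate numbers did not pair the libraries (correlations of deviations -0.088 to 0.048, with no library closest to its own number), and the replicate block gave 19 higher and 11 lower calls. Upper quartile scaling moved the median of all genes to 0.13 from 0.05 and added CACNB3 and CACNG8. Fold changes changed sign in 4 genes that were never called against siNEG, for a cause that was not tested: KCNJ12 (0.0826 with upper quartile scaling, 0.0184 with 10 counts in every library, 0.0028 with the replicate block, -0.146 to 0.0626 without 1 library), KCNQ3 (-0.0022 with RLE scaling, -0.0318 with no filter, -0.0101 with DESeq2, -0.0238 with pooled controls, -0.0561 against Media, -0.147 to 0.234 without 1 library), KCNC4 (-0.173 to 0.511 without 1 library) and SCN8A (-0.0281 to 0.586 without 1 library, below 0 only without siEF replicate 2). Against Media, SCN8A was called higher with upper quartile scaling, with no filter, and without siEF replicate 3 or Media replicate 3. Depth limits the 86 untested genes, whose highest count was 21.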

Other observations

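KCNJ5, the inward rectifier gene called higher in siEF at under 1 CPM, starts 78089 bp beyond the end of FLI1 on chromosome 11, and KCNJ1, which was not tested, starts 54106 bp beyond it. Of the untested channel genes, KCNS1, a silent subunit gene, had 25 counts over the siEF libraries, 2 over siNEG and 2 over Media, SCN11A had 27, 4 and 0, KCNIP1 had 22, 5 and 5, and CACNA1D, an L-type pore gene, had 35, 12 and 10. KCNG3 (5 counts in siEF, 30 in siNEG and 34 in Media), KCNH4 (4, 17 and 24) and SCN1A (3, 15 and 27) were lower in siEF by count. These sums are given with no test in the main fit, and were chosen after their values were seen. With no filter on low counts, KCNS1 was called higher than both controls, SCN11A higher than Media and KCNG3 lower than Media. KCNIP1, CACNA1D, KCNH4 and SCN1A were not called in that fit.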
